A study of Mus musculus with 1073 samples.

Results

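The genes described here are 54 genes of DNA replication and cell division, 24 of S phase and 30 of mitosis, out of 15967 genes in the deposited tables. They were taken by symbol from a list of established cell cycle genes. Each of the 54 was found in both deposited tables. They were followed in 926 single cells of the mouse yolk sac, out of 1073 captured, that had been sorted into 13 populations between embryonic days E7.25 and E10.5.

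The 2 earliest populations were Flk1-GFP+ extraembryonic mesoderm cells of Flk1-GFP/+ embryos, at E7.25 (73 and 74 cells in 2 lanes) and E7.75 (140 cells), released with trypsin. All later cells came from C57BL/6 embryos and were released with collagenase and dispase. Haematopoietic progenitors (HPC) were TER119-CDH5+CD41+ at E8.25 (73 cells) and E8.5 (89 cells), and TER119-CDH5-CD45+CD41low at E9.5 (46 cells) and E10.5 (87 cells). Megakaryocytes (Mk) were TER119-CDH5-CD41+ at E8.5 (37 cells) and TER119-CDH5-CD45-CD41high at E10.5 (73 cells). Primitive erythroid cells (EryP) were CD41-CDH5-TER119+ at E8.5 (66 cells) and, with CD45- added to that gate, numbered 3 at E10.5. The E10.5 macrophages (Mac, TER119-CDH5-CD41-CD45+) numbered 25. Endothelial cells (Endo) carried CDH5 and lacked TER119 and CD41 at E8.5 (79 cells), and also lacked CD45 at E10.5 (61 cells). No embryo or pool was named for a cell, so each population counts as 1 sample, no test between populations could be made, and intervals cover counting error only.

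Total counts per cell ran from 483830 to 5943200, with a median of 1887350, and 46 cells had under 840000. Levels are in CPM, the deposited counts scaled to a common library size and by size factors, and their sum per cell ran from 699615 to 4176740. One flow cell carried all populations of E7.25, E8.25 and E8.5, the other all those of E7.75, E9.5 and E10.5, so stage and flow cell cannot be told apart. Transcripts of both sexes (Xist with a Y-linked gene) were found in 293 cells. Among them were 16 of the 37 E8.5 Mk, 8 of the 73 E10.5 Mk, 30 of the 66 E8.5 EryP, 40 of the 89 E8.5 HPC and 59 of the 79 E8.5 Endo. The list medians of Mk at E8.5 and E10.5 are also given without such cells. The sorted names were checked on marker genes. The 4 megakaryocyte markers Gp1bb, Gp9, Vwf and Pf4 summed to a mean of 5523 CPM in E10.5 Mk, against 0 to 224 CPM in the other 12 populations. In E8.5 Mk they summed to 224 CPM. The embryonic globin gene Hbb-bh1 had a mean of 22619 CPM in E8.5 Mk, against 56134 CPM in E8.5 EryP and 315 CPM in E10.5 Mk. Alas2, the erythroid enzyme of haem synthesis, had means of 356, 1394 and 1.16 CPM in the same order. The E8.5 Mk thus carried erythroid transcripts, whose part in each result below was not tested.

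A dividing cell first loads the MCM helicase onto its replication origins with the help of CDC6 and CDT1, a step called licensing. Cyclin E and CDK2 then help to start S phase, in which polymerases copy the DNA and ribonucleotide reductase supplies its building blocks. Cyclin B and CDK1 drive the cell into mitosis, the anaphase-promoting complex (APC/C) drives it out, and at cytokinesis ECT2 activates RhoA, which with anillin forms the contractile ring that separates the daughters. Megakaryocytes are known for endomitosis, in which adult cells replicate their DNA repeatedly and enter mitosis without completing cytokinesis. The sample titles also name the Mk here PreDPFC at E8.5 and DPFC at E10.5. For its gates the paper cites a study of diploid platelet-forming cells that come before polyploid megakaryocytes. DNA content was not measured here, so the ploidy of these Mk was not tested.

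Genes of the 2 lists are known to be under different promoter control, E2F factors at replication genes, and NF-Y with the DREAM and B-MYB complexes at mitotic genes. To show what the members carry, promoters were read from RefSeq (GRCm38.p6), which held an entry for 45 of the 54 members, 20 of S phase and 25 of mitosis. Of these, 6 are printed below in lower case with the motif letters in capitals, as the 160 bases just before the annotated start, on the strand of the gene. Mcm5 and Mcm6 show E2F letters, Ccnb1 and Ube2c show repeated CCAAT boxes, and Ect2 and Ccne1 are described cell by cell below. Capitals mark CCAAT, the CHR letters TTTGAA and the E2F letters in either direction, and neighbouring E2F matches in Mcm5 and Mcm6 overlap.
Mcm5: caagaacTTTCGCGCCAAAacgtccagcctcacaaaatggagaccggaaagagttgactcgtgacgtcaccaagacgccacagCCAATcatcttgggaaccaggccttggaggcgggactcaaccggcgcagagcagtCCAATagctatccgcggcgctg
Mcm6: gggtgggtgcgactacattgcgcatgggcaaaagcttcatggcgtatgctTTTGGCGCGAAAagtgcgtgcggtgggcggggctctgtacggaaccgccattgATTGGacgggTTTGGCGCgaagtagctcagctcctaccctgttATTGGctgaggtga
Ccnb1: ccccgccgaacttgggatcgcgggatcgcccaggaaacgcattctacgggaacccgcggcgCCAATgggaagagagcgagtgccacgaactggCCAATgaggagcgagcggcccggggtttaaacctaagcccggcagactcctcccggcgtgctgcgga
Ube2c: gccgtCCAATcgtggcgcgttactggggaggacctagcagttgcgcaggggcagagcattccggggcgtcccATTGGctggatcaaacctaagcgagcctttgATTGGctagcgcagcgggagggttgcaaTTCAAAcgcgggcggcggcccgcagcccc
Ect2: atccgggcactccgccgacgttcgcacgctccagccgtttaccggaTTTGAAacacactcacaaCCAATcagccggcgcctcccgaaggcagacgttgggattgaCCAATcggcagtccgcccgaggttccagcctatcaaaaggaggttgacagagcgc
Ccne1: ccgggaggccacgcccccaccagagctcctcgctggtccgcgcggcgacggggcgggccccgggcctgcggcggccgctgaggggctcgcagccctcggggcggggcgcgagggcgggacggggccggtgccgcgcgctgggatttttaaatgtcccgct
Ccne1 held none of these letters in this window. Mcm5 lies just upstream of its start at chr8:75109349-75109508 (plus strand), Mcm6 at chr1:128359706-128359865 (minus), Ccnb1 at chr13:100786487-100786646 (minus), Ube2c at chr2:164769769-164769928 (plus), Ect2 at chr3:27153879-27154038 (minus, the first of 2 entries) and Ccne1 at chr7:38107491-38107650 (minus).

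Searched over 250 bases before the start and on both strands, CCAAT was present in 21 of 25 mitosis promoters (84.0%) and 13 of 20 S phase promoters (65.0%), against 40.4% of the 10104 genes of the table with a promoter entry. More than 1 CCAAT was present in 14 of 25 mitosis promoters (56.0%) and 7 of 20 S phase promoters (35.0%), against 14.8%. A pair of CCAAT boxes starting 31 to 33 bases apart was present in 6 of 25 mitosis promoters (24.0%) and 1 of 20 S phase promoters (5.00%), against 1.78%, and this spacing was chosen after the promoters were seen. The CHR letters (TTTGAA or TTCGAA) were present in 9 of 25 mitosis promoters (36.0%) and 4 of 20 S phase promoters (20.0%), against 14.7%. The E2F letters (TTTGGCGC, TTTCCCGC, TTTCGCGC or TTTGCCGC) were present in 5 of 20 S phase promoters (25.0%) and 1 of 25 mitosis promoters (4.00%, Cdk1), against 3.91%. These are matches of letters and not sites of binding.

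Transcripts of both lists were present in most cells of most populations. Cells were thinned to 840000 counts each, which left 880 cells (18 E7.75, 16 E10.5 HPC, 6 E10.5 Mk, 4 E10.5 Endo, 1 E8.25 HPC and 1 E9.5 HPC were shallower and left out), and a cell was called rich in a list when it held at least 10 counts of at least 50% of the list's genes. In 9 populations with over 3 cells (all except E10.5 Mk, Mac and Endo), 95.6% to 100% of the cells were rich in S phase genes and 94.6% to 100% in mitosis genes. A rich cell was not read as a cell in that phase, since most cells were rich in both lists at once. At E7.25, all but 1 of the cells (99.3%) were rich in S phase genes and all but 3 (97.96%) in mitosis genes. At E8.5, all 66 EryP were rich in both lists.

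All 37 E8.5 Mk were rich in S phase genes (100%, exact 95% interval 90.5 to 100) and 35 in mitosis genes (94.6%, 81.8 to 99.3). Of the 67 thinned E10.5 Mk, 55 were rich in S phase genes (82.1%, 70.8 to 90.4) and 57 in mitosis genes (85.1%, 74.3 to 92.6). Both applied to 51 of the 67 cells, S phase alone to 4, mitosis alone to 6 and neither to 6. With all counts of all 73 E10.5 Mk the shares were 87.7% and 93.2%. Of the thinned E10.5 Mk, 12 cells lay within 2 genes of the S phase limit and 12 within 2 genes of the mitosis limit. The E10.5 Mk thus spanned a wider range than E8.5 Mk, from 3 to 24 of the 24 S phase genes per cell, against 15 to 24.

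Lower shares were found in 2 other E10.5 populations. Of 25 Mac, 18 were rich in S phase genes (72.0%, 50.6 to 87.9) and 16 in mitosis genes (64.0%, 42.5 to 82.0). Of 57 E10.5 Endo, 24 were rich in S phase genes (42.1%, 29.1 to 55.9) and 26 in mitosis genes (45.6%, 32.4 to 59.3), and 22 were rich in neither. At E8.5, all 79 Endo were rich in S phase genes and 78 (98.7%) in mitosis genes. Of these 79, 59 held transcripts of both sexes, as did 8 of the 24 E10.5 Endo rich in S phase genes and 14 of the 33 others. The Endo shares were not recomputed without such cells. In E10.5 HPC, 70 of 71 cells (98.6%) were rich in each list. The 3 E10.5 EryP were rich in S phase genes and 2 of them in mitosis genes.

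The number of detected genes moved with these shares. At equal depth, the median E10.5 Mk rich in S phase genes held 7403 genes and the 12 others held 5080. In E10.5 Endo the same medians were 6118.5 and 5561. Median total counts of rich and other cells were 2006320 and 1761710 in E10.5 Mk, and 2018510 and 2264950 in E10.5 Endo. The part of RNA content per cell in the shares was not tested.

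**Figure D1:**
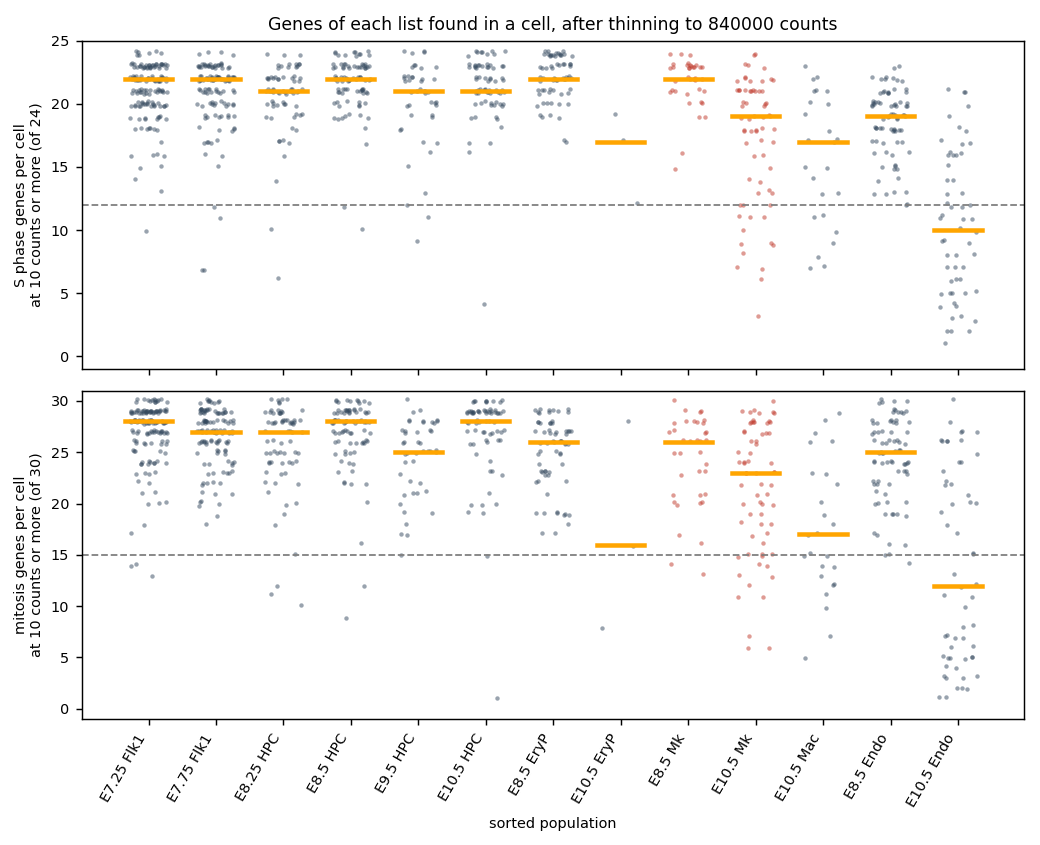
Each point is 1 cell thinned to 840000 counts, and the vertical axis gives how many of the 24 S phase genes (top) or 30 mitosis genes (bottom) it held at 10 counts or more, by sorted population. Orange bars are medians, the dashed line is the limit for a rich cell, and Mk are red. Medians were 22 and 26 genes in E8.5 Mk, 19 and 23 in E10.5 Mk, and 10 and 12 in E10.5 Endo, whose cells spread over almost the whole range.

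Across populations, E8.5 EryP and E10.5 Endo stood at the 2 ends of the levels. Among the 12 populations with over 3 cells, E8.5 EryP had the highest median level of 23 of the 54 members (14 S phase and 9 mitosis genes), and E8.5 Mk of 10. The lowest median was in E10.5 Endo for 41 of the 54 members (20 S phase and 21 mitosis genes) and in Mac for 9. By mean level in place of the median, E10.5 Endo was lowest for 22 members and Mac for 12, and E8.5 EryP was highest for 18 and Mac for 10. The same counts over all genes were not computed, so it is not known whether these orders are particular to the members. At equal depth E10.5 Endo also held the fewest genes of the 12 populations, a median of 5735 against 6842 to 8868.

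**Figure D2:**
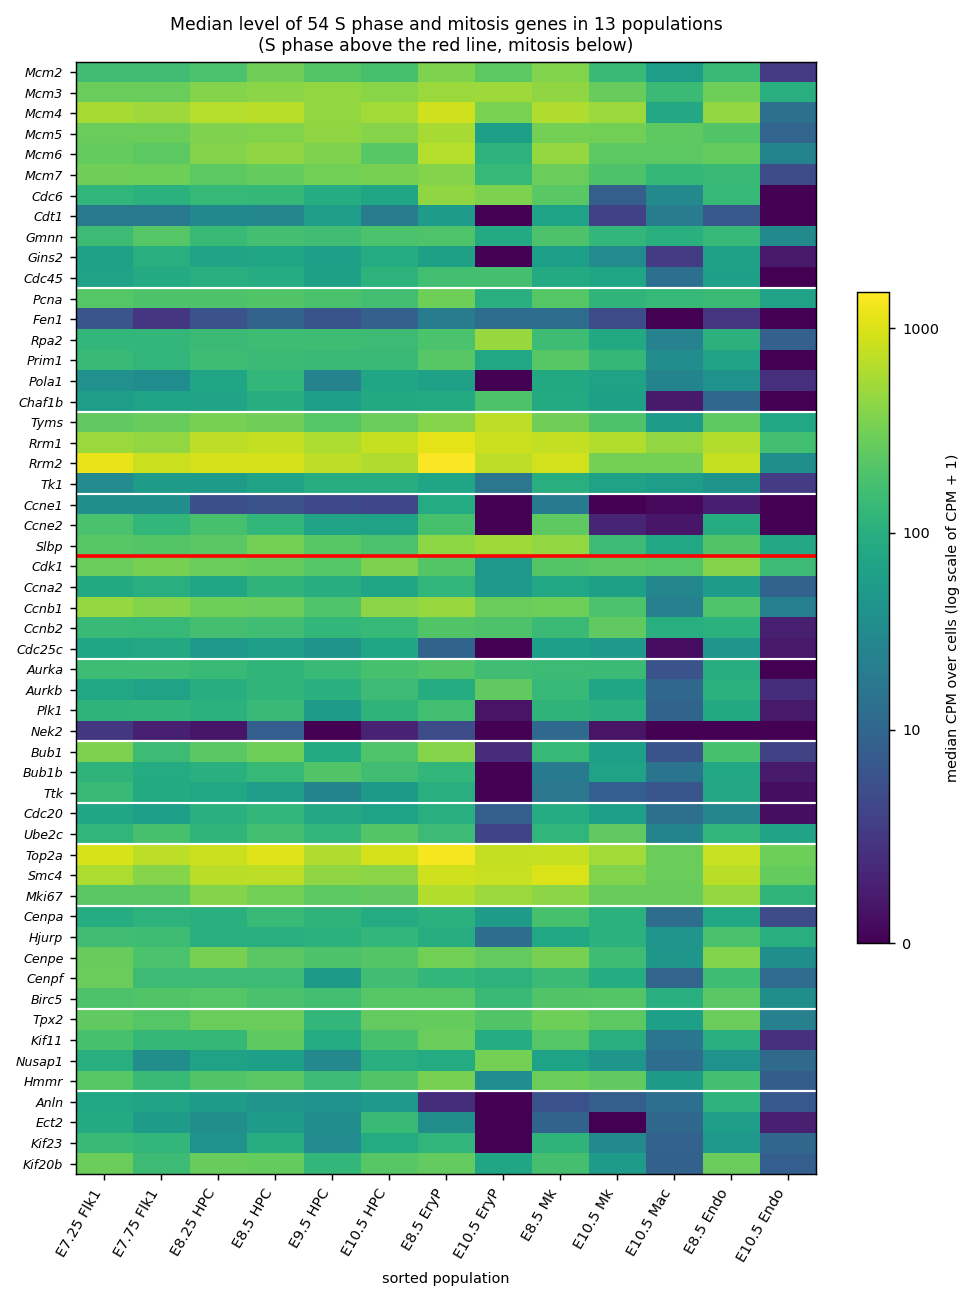
Colour gives the median CPM over the cells of each sorted population (columns) for each of the 54 genes (rows), on a log scale of CPM + 1, with S phase genes above the red line, mitosis genes below it, and white lines between roles. The darkest columns are E10.5 Endo and Mac, and E8.5 EryP are bright through the replication genes.

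Genes of replication and mitosis show the size of these differences. For Mcm5, a subunit of the MCM ring, the median was 577 CPM in E8.5 EryP, 378 CPM in E8.5 HPC, 327 CPM in E8.5 Mk and 204 CPM in E8.5 Endo. At E10.5 it was 391 CPM in HPC, 313 CPM in Mk, 242 CPM in Mac and 9.90 CPM in Endo. Each E10.5 population except Endo thus had a median within the range of the E8.5 populations. Rrm2, the regulated subunit of ribonucleotide reductase, had a median of 1438 CPM in E8.5 EryP, 922 CPM in E8.5 Mk, 323 CPM in E10.5 Mk and 36.9 CPM in E10.5 Endo. Among the mitosis genes, Top2a, which untangles replicated chromosomes, had a median of 1366 CPM in E8.5 EryP, 793 CPM in E8.5 Mk, 545 CPM in E10.5 Mk and 299 CPM in E10.5 Endo.

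The first comparison asked whether megakaryocytes held more or less of these transcripts than the other populations of their stage. A gene was counted as higher or lower when the mean level differed 2-fold or more, on log2(CPM + 1), with the compared populations weighted equally. At E10.5 (Mk against HPC, Endo and Mac), none of the 54 members was higher, where 12.5% of all genes were, and 6 were lower, where 24.1% of all genes were. The median log2 ratio was -0.05 over the S phase members and 0.14 over the mitosis members, against -0.10 over all 10004 genes compared. Taken over the median cell in place of the mean, 12 members were higher and 6 lower, where 25.3% and 18.6% of all genes were, and the medians were 0.41 for each list against 0.35 over all genes. As means of log2 values, 18 members were higher and 1 lower, where 20.0% and 13.3% of all genes were, and the medians were 0.57 and 0.58 against 0.21. The sign of the S phase median and the count of higher members thus depended on how the cells of a population were averaged.

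The direction differed with the population compared. Against HPC, none of the members was higher in E10.5 Mk, where 14.8% of all genes were, and 3 were lower, where 11.8% of all genes were, with list medians of -0.17 (S phase) and -0.02 (mitosis). Against Endo, 12 were higher, where 22% of all genes were, and 3 lower, where 29.2% of all genes were, with medians of 0.71 and 0.18. Of these 12, 10 were S phase genes. Against Mac, 8 were higher, where 28.9% of all genes were, and 9 lower, where 24.2% of all genes were, with medians of -0.18 and 0.32. Over all genes the medians of the 3 comparisons were -0.02, -0.07 and 0.17.

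The 6 lower members were Fen1, Ect2, Ccne1, Nusap1, Cdc45 and Mki67. For 4 of them the call was lost without the highest of the 25 macrophages for that gene, all other cells being kept. Cdc45, a helicase subunit, had a mean of 828 CPM in Mac with a median of 13.6 CPM and 1 cell at 19946 CPM, and a mean of 137.8 CPM in E10.5 Mk (log2 ratio -1.25). Without that macrophage its log2 ratio was 1.11. Leaving out the highest macrophage took Mki67, a coat protein of mitotic chromosomes, from -1.20 to -0.42 (highest cell 26142 CPM, Mac median 271 CPM), and the spindle gene Nusap1 from -1.37 to -0.54 (highest cell 9480 CPM, Mac median 12.5 CPM). The ratio of Nusap1 was -0.62 without cells holding transcripts of both sexes. Leaving out its highest macrophage took the flap nuclease gene Fen1 from -2.02 to 0.47 (highest cell 2204 CPM, Mac median 0 CPM). Since the use of strand in counting is not given, Fen1 reads could also not be told from those of Gm10143, which overlaps it on the opposite strand over 1911 bases. Without the highest macrophage, 2 members were lower, Ect2 (-1.52) and Ccne1 (-1.39), where 18.3% of all genes were, and 2 were higher, Cdc45 and Ccne2 (1.07), where 16.5% of all genes were.

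Ect2 encodes the exchange factor that activates RhoA at the division site, and its gene spans chr3:27097222-27153878 on the minus strand. In E10.5 Mk its level ran from 0 to 614 CPM with a median of 0, and its mean was 28.7 CPM. In E10.5 HPC the level ran from 0 to 773 CPM with a median of 138.9 CPM and a mean of 153.5 CPM. Medians were 10.6 CPM in Mac (mean 54.5) and 0.882 CPM in E10.5 Endo (mean 61.1). The ranges overlap in all populations. At equal depth, Ect2 was found in 23 of 67 E10.5 Mk (34.3%, 23.2 to 46.9, and in 37.0% of all 73 at full depth), against 88.7% of E10.5 HPC, 88.0% of Mac and 43.9% of E10.5 Endo (30.7 to 57.6). The mean log2 ratio was -2.38 against HPC, -1.06 against Endo and -0.90 against Mac, and against the 3 together -1.61. It was the only one of the 54 that was 2-fold or more lower under all 11 ways tried of computing the E10.5 ratio, from -1.29 to -5.68. These ways draw on the same cells and are not independent. The share of all genes lower under all of them was not computed.

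In E8.5 Mk, Ect2 ran from 0 to 477 CPM with a median of 9.13 CPM and a mean of 60.4 CPM. The median was 56.4 CPM in E8.5 HPC, 57.2 CPM in E8.5 Endo and 36.5 CPM in E8.5 EryP. It was found in 25 of 37 E8.5 Mk (67.6%, 50.2 to 82.0), against 88.8% of HPC, 88.6% of Endo and 81.8% of EryP. The log2 ratio of means was -0.74, under the 2-fold limit. In the Mk of both stages Ect2 thus had the lowest mean of the populations compared at that stage.

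Low Ect2 was also seen among Mk rich in mitosis genes, a split that was made after its level was known and whose list includes Ect2 itself. At 10 counts or more, 14 of 57 such E10.5 Mk held Ect2 (24.6%, 14.1 to 37.8), and 16 of 35 such E8.5 Mk (45.7%, 28.8 to 63.4). In HPC it was 61 of 70 cells at E10.5 (87.1%, 77.0 to 93.9) and 72 of 87 at E8.5 (82.8%, 73.2 to 90.0), and in E10.5 Endo 13 of 26 (50.0%, 29.9 to 70.1). Ccnb1, the cyclin B that drives mitotic entry, was held by 56 of the 57 E10.5 Mk (98.2%, 90.6 to 100). Ccnb1 also counts in the split, so a high share among these cells is partly built in and no conclusion is drawn from it. The median of Ccnb1 over all E10.5 Mk was 191 CPM, against 424 CPM in E10.5 HPC. The Ect2 promoter printed above carries both CCAAT and CHR letters, as 9 of the 25 mitosis promoters did (36.0%), against 15.0% of the S phase promoters and 5.73% of the promoters of the table's genes.

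The 3 other cytokinesis genes of the list were compared beside it. All 4 had a log2 ratio below 0 at E10.5, with a median of -0.73, and at E8.5, with a median of -0.61. Of the 30 mitosis members, 12 were below 0 at E10.5 and 22 at E8.5. The share of all genes below 0 was not computed. Kif20b, a midbody kinesin, had a ratio of -0.83 at E10.5 and -0.48 at E8.5. Kif23, a subunit of the centralspindlin complex that recruits ECT2, had a ratio of -0.64 and -0.11. Anln, the ring scaffold anillin (chr9:22332012-22389188, minus strand), had a ratio of -0.36 and -1.40. Over all genes the medians were -0.10 and -0.02.

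Anln was the 1 member that was lower in E8.5 Mk than in the other E8.5 populations, where 14% of all genes were lower. None of the 54 was higher, where 5.6% of all genes were. The median log2 ratio was 0.05 over the S phase members and -0.14 over the mitosis members. With EryP left out of the comparison, 2 members were higher and 1 lower, where 8.04% and 17.8% of all genes were, and the S phase median was 0.38. Without cells holding transcripts of both sexes, the medians were 0.24 over the S phase and -0.39 over the mitosis members, and at E10.5 they were -0.14 and 0.14. Anln ran from 0 to 354 CPM in E8.5 Mk with a median of 5.34 CPM and a mean of 35.9 CPM. The median was 43.9 CPM in HPC, 113.6 CPM in Endo and 1.63 CPM in EryP, so the median of EryP lay below that of Mk although the mean of EryP (45.0 CPM) lay above. Anln was found in 73.0% of E8.5 Mk and 62.1% of EryP at equal depth, against 92.1% of HPC and 93.7% of Endo. Its log2 ratio was -2.27 against Endo, -0.87 against HPC and -0.32 against EryP. It stayed 2-fold or more lower under all 10 ways tried of computing the E8.5 ratio, from -1.04 to -3.09. These ways draw on the same cells, and the share of all genes lower under all of them was not computed. In E10.5 Mk, Anln had a median of 8.26 CPM and a mean of 60.7 CPM.

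**Figure D3:**
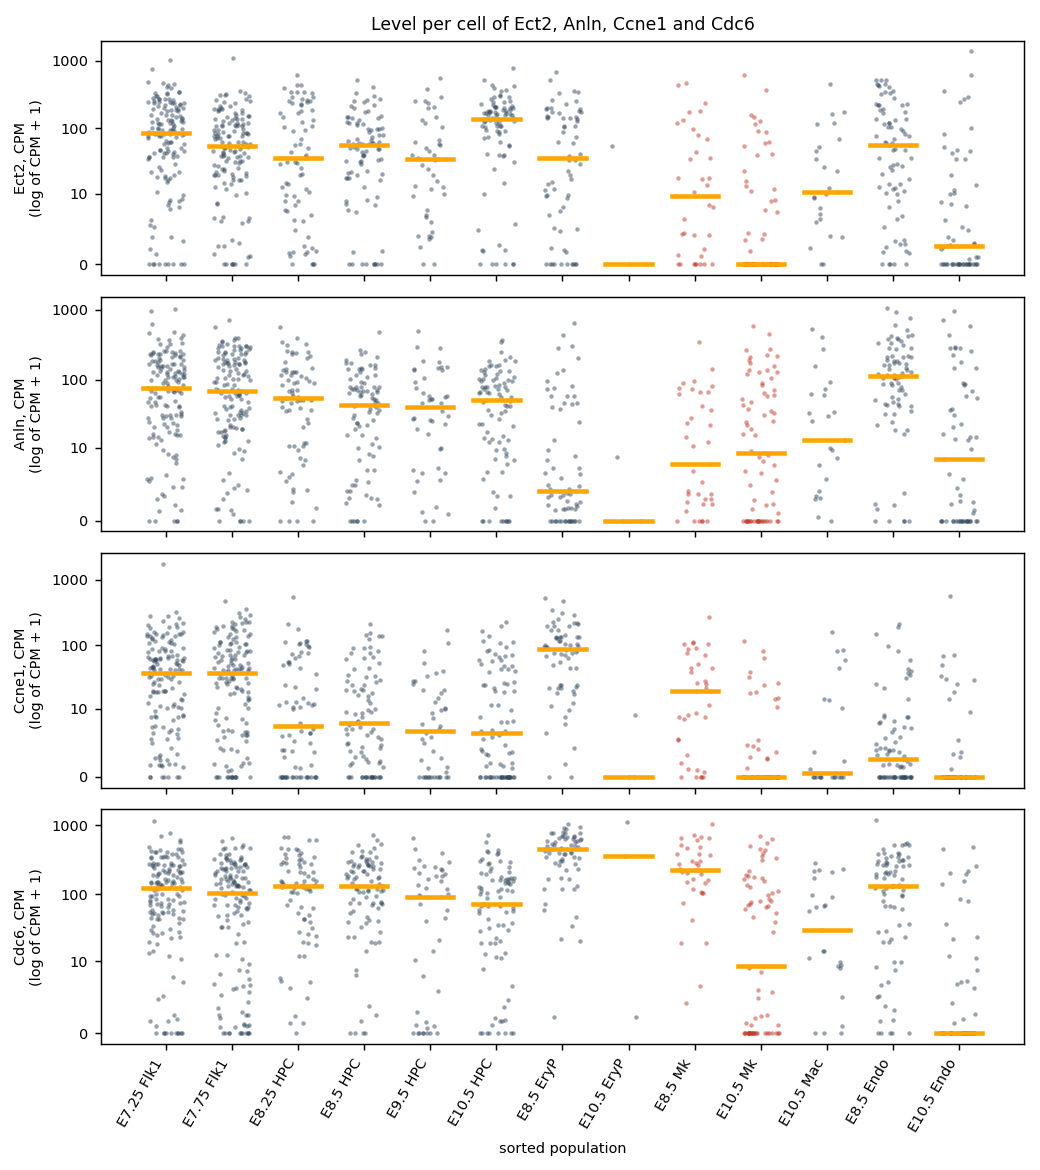
Each point is 1 cell and the vertical axis its level of Ect2, Anln, Ccne1 or Cdc6 in CPM, on a log scale of CPM + 1, by sorted population, with orange bars at the medians and Mk in red. In E10.5 Mk most cells sit at 0 CPM for Ect2 and Ccne1, while E10.5 HPC have a median Ect2 of 138.9 CPM and E8.5 EryP a median Cdc6 of 450 CPM.

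The order of the means was also compared. In E10.5 Mk the mean lay above that of each of the 3 compared populations for 9 members (Slbp, Prim1, Ccne2, Ccnb2, Cdc25c, Tpx2, Cenpf, Cenpa and Hmmr), or 9 of 54, where 24.1% of all genes did so. It lay below each of them for 6 members (Ccne1, Cdk1, Kif20b, Nusap1, Anln and Ect2), where 20% of all genes did so. In E8.5 Mk the mean lay above each compared population for 7 members, where 22.2% of all genes did so. It lay below each for 13 members, where 17.6% of all genes did so. The 13 were the helicase genes Gins2 and Cdc45, the checkpoint genes Bub1, Bub1b and Ttk, the cytokinesis genes Kif20b, Anln and Ect2, and Top2a, Aurkb, Tpx2, Ube2c and Hjurp, the last a chaperone of centromeric CENPA.

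The 3 checkpoint genes, which hold cells in mitosis until chromosomes are attached, were below 0 in E8.5 Mk, as were 22 of all 30 mitosis members. Ttk (MPS1 kinase) had a log2 ratio of -0.78, Bub1b (BUBR1) of -0.73 and Bub1 of -0.30. The median level of Bub1b was 20.0 CPM in E8.5 Mk, against 131.4 CPM in HPC, 124.1 CPM in EryP and 76.2 CPM in Endo, and 66.3 CPM in E10.5 Mk. Without the highest cell of each gene in each population, a setting chosen after seeing the data, Bub1b passed the 2-fold limit (-1.05). From medians over cells the ratios of Ttk, Bub1b and Bub1 were -2.15, -2.41 and -1.10, where 18.0% of all genes were 2-fold or more lower. From means of log2 values they were -1.59, -1.52 and -0.94, where 10.4% of all genes were. At E10.5 Bub1b had a log2 ratio of 0.79, but its sign differed with the population compared. Against HPC alone all 3 checkpoint genes were below 0 in E10.5 Mk, from -1.04 to -0.13. Against Endo alone and against Mac alone all 3 were above 0, with medians of 0.07 and 1.44.

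Of the 5 genes of mitotic cyclins, Cdc25c and Cdk1, 2 had ratios below 0 at E10.5 (Ccna2 and Cdk1), where 12 of all 30 mitosis members did. Ccnb2, another cyclin B, ran from 0 to 834 CPM in Mk with a median of 251 CPM. The medians were 133.8 CPM in HPC, 97.5 CPM in Mac and 0.882 CPM in Endo, so Mk had the highest median and the cells of all 4 populations overlapped. Its log2 ratio of means was 0.81, and it was found in all 67 thinned E10.5 Mk. Cdc25c, a phosphatase that activates CDK1, had a ratio of 0.78, and Cdk1 itself of -0.28. Ube2c, the ubiquitin-conjugating enzyme of the APC/C, had a median of 248 CPM in E10.5 Mk, against 214 CPM in HPC, 26.1 CPM in Mac and 70.4 CPM in Endo.

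**Figure D4:**
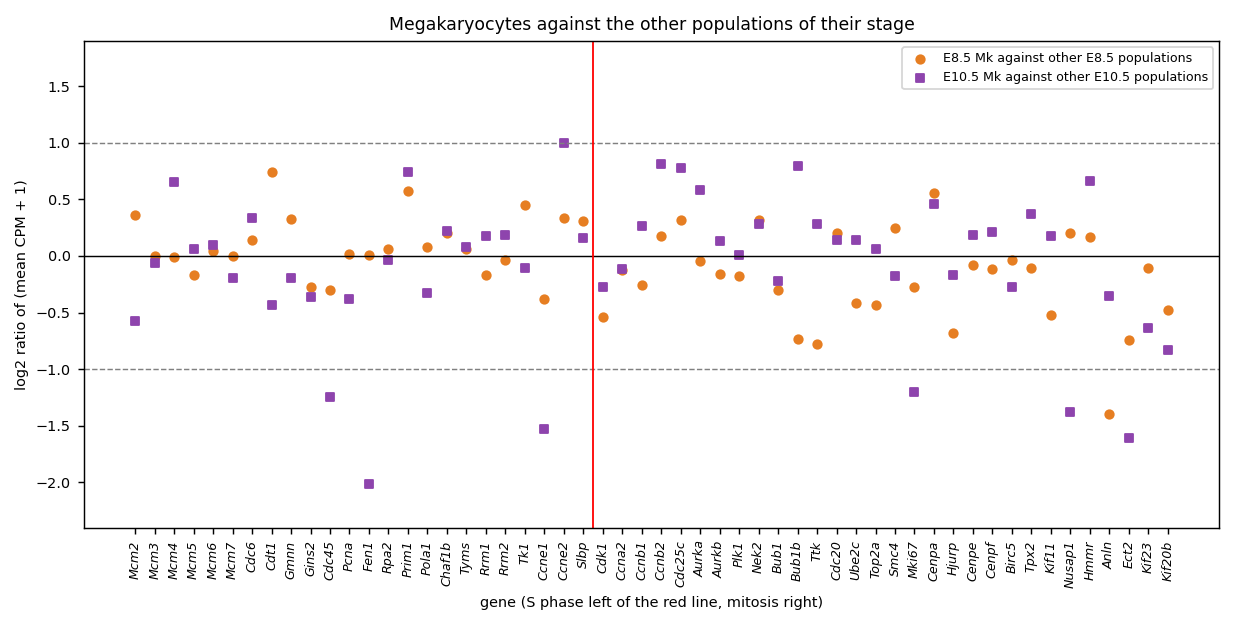
For each gene (horizontal axis, S phase left of the red line) the vertical axis gives the log2 ratio of mean CPM + 1 of Mk over the other populations of their stage, weighted equally, at E8.5 (circles) and E10.5 (squares). Dashed lines mark 2-fold. Most genes lie between them, with Ect2 at -1.61 and Ccne1 at -1.53 at E10.5 and Anln at -1.40 at E8.5 below.

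Ccne1 and Ccne2 encode the 2 E-type cyclins and had different ratios of means. In E10.5 Mk, Ccne1 ran from 0 to 115.8 CPM with a median of 0 and a mean of 6.45 CPM. In E10.5 HPC it ran from 0 to 229 CPM with a median of 3.69 CPM and a mean of 27.4 CPM. The medians of Mac and E10.5 Endo were 0.160 and 0 CPM, with means of 18.7 and 15.2 CPM. It was found in 23.9% of thinned E10.5 Mk (14.3 to 35.9), 22.8% of Endo (12.7 to 35.8), 36.0% of Mac and 59.2% of HPC, so the share in Mk did not stand below that in Endo. Its log2 ratio was below 0 under all 11 ways tried and past 2-fold under 9, with no share of all genes computed for either. Ccne2 had a mean of 114.9 CPM in E10.5 Mk, with a median of 1.12 CPM and a highest cell at 843 CPM, and a log2 ratio of 1.00, just under the limit. From medians over cells, the log2 ratio was -3.47 for Ccne2 and -1.19 for Ccne1. The direction of Ccne2 thus depended on how the cells were averaged. Reads of Ccne2 overlap Ints8 on the opposite strand over 474 bases, and the part of these in its level was not tested.

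The second comparison set E10.5 against E8.5 within Mk, HPC and Endo, with each stage on its own flow cell. In Mk the median log2 ratio was -0.64 over the S phase members and -0.12 over the mitosis members, against -0.05 over all genes. Of the 54 members 7 were lower at E10.5, where 12.7% of all genes were, and 2 were higher, where 16.3% of all genes were. The lower S phase members were the licensing genes Cdt1 (-1.76) and Cdc6 (-1.53) and the cyclins Ccne1 (-2.39) and Ccne2 (-1.26). The lower mitosis members were Bub1 (-1.26), the condensin subunit Smc4 (-1.18) and Ect2 (-1.05). The higher ones were Bub1b (1.03) and Ube2c (1.01). The gates and the erythroid markers of E8.5 Mk also differed between the stages. Transcripts of both sexes were found in 16 of the 37 E8.5 Mk and 8 of the 73 E10.5 Mk. The ratios between the Mk stages were not recomputed without these cells.

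Cdc6 shows how the Mk stages differed cell by cell. In E8.5 Mk it ran from 1.74 to 1065 CPM with a median of 230 CPM, and was found in 36 of 37 cells (97.3%). In E10.5 Mk it ran from 0 to 710 CPM with a median of 8.18 CPM, and was found in 40 of 67 thinned cells (59.7%, 47.0 to 71.5, and in 65.8% of all 73 at full depth). The highest cells overlapped, and E10.5 Mk added a large group at or near 0. In E10.5 HPC the median was 72.7 CPM and in E8.5 EryP 450 CPM. Among cells rich in S phase genes, a split in which Cdc6 itself counts and a gene picked here after its levels were seen, 27 of 55 E10.5 Mk held at least 10 counts of Cdc6 (49.1%, 35.4 to 62.9), against 35 of 37 E8.5 Mk (94.6%) and 55 of 70 E10.5 HPC (78.6%, 67.1 to 87.5). Cdt1, its partner in licensing, had a median of 69.1 CPM in E8.5 Mk and 3.20 CPM in E10.5 Mk. The 6 fork genes, from Pcna to Pola1, all had ratios below 0 between the Mk stages, with a median of -0.69, and none was past 2-fold. Over the whole S phase list, 21 of 24 members were below 0 in Mk, 17 in HPC and 20 in Endo. Of the 6 fork genes, 6 were below 0 between the HPC stages (median -0.30) and 5 between the Endo stages (median -0.78). The share of all genes below 0 was not computed.

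In HPC the medians between stages were -0.20 over the S phase members and -0.13 over the mitosis members, against -0.08 over all genes. Of the members 2 were lower, Ccne2 (-1.09) and the spindle motor Kif11 (-1.15), where 12% of all genes were, and none was higher, where 9.02% of all genes were. In Endo the medians were -0.78 and -0.34, against 0.06 over all genes. Transcripts of both sexes were found in 59 of the 79 E8.5 Endo and 26 of the 61 E10.5 Endo. The Endo values were not recomputed without these cells. In E10.5 Endo 11 members were lower, where 16.4% of all genes were, and 1 was higher, Tk1 (1.29, thymidine kinase), where 21.2% of all genes were. The largest of the 11 were Cdc45 (-2.49), Ccne2 (-2.23), Cdc6 (-2.20), Pola1 (-1.68, the polymerase of primase) and Rrm2 (-1.68). The others were Ttk, Bub1, Cenpe, Bub1b, Mcm4 and Rrm1, from -1.60 to -1.05. The 3 lineages thus stood in the order HPC, Mk, Endo by the S phase median, with no test of the difference between them.

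Correlations between genes over the cells of a population were low and were higher within each list than between the lists. The correlation (Spearman) between pairs of genes, averaged within populations of 25 cells or more, was 0.10 to 0.36 within the S phase list and 0.17 to 0.48 within the mitosis list, and -0.11 to 0.08 between the lists. For each of the 54 members the best correlated other member was of its own list. Of 1431 pairs the highest was Ccnb1 with Ube2c (0.58), followed by Ccnb1 with Top2a (0.52) and Cdk1 with Ube2c (0.52). The lowest was Ccne2 with Ube2c (-0.24). Cells of a population share their sort and differ in depth, so these are descriptions.

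The spread of both lists was wider in E10.5 Mk than in E8.5 Mk. As the mean log2(CPM + 1) over the list, the S phase score had an SD over cells of 1.59 in E10.5 Mk and 0.73 in E8.5 Mk, and the mitosis score of 1.55 and 1.09. The S phase score ran from 2.18 to 7.98 in E10.5 Mk and from 4.95 to 8.29 in E8.5 Mk. Over the 73 E10.5 Mk the 2 scores had a correlation of 0.23, over the 37 E8.5 Mk of 0.04, over the 87 E10.5 HPC of -0.38 and over the 61 E10.5 Endo of 0.32. The S phase score went with the number of detected genes in E10.5 Mk (0.53), and with the total count weakly (-0.23).

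**Figure D5:**
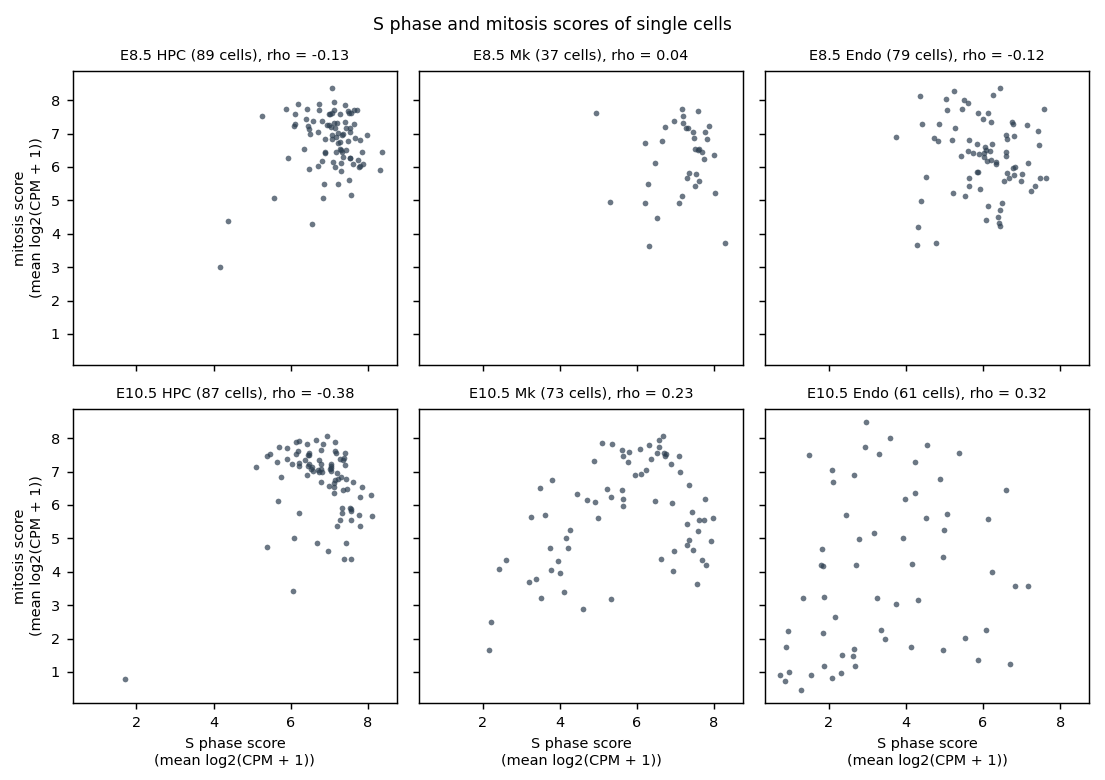
Each point is 1 cell, with the S phase score on the horizontal axis and the mitosis score on the vertical axis, both as mean log2(CPM + 1) over the list, for HPC, Mk and Endo at E8.5 (top) and E10.5 (bottom). At E10.5 the lowest S phase and mitosis scores are 1.70 and 0.79 in HPC, 2.18 and 1.65 in Mk, and 0.73 and 0.46 in Endo. At E8.5 they are 4.16 and 3.01 in HPC, 4.95 and 3.62 in Mk, and 3.75 and 3.67 in Endo.

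Other genes of the cell cycle were read from lists of the pathway, with the same 2-fold rule and thus the same shares over all genes, 12.5% higher and 24.1% lower at E10.5 and 5.6% and 14% at E8.5. At E10.5, of 7 G1 cyclin and kinase genes 1 was higher in Mk and 2 lower. The D-type cyclin Ccnd1 had a mean of 0.622 CPM in Mk against 52.0 CPM in the other populations (-5.03), its relative Ccnd3 154.3 against 62.0 CPM (1.30), and their kinase partner Cdk6 97.1 against 504 CPM (-2.36). Of 5 CDK inhibitor genes, of which 4 passed the minimum of 10 CPM, 3 were lower and 1 higher. Cdkn2d (p19INK4D) had a mean of 303 CPM in Mk against 40.5 CPM (2.87), and Cdkn1c (p57) 16.3 against 137.4 CPM (-3.00). Of 13 pocket protein and E2F genes 6 were lower and 2 higher, among them Foxm1, an activator of mitotic genes, with 27.0 against 166 CPM (-2.57). These counts differed with the population compared. Against HPC alone 2 of the 13 were lower and 4 higher, where 11.8% and 14.8% of all genes were. Against Endo alone 2 were lower and 3 higher, where 29.2% and 22% of all genes were. Of the 5 inhibitor genes none was lower against HPC alone and 3 against Endo alone. The pathway lists were not recomputed without the highest macrophage.

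Of 20 other replication genes 1 was higher and 1 lower in E10.5 Mk, with a median of 0.27, and of 28 other mitosis genes 4 were higher and none lower, with a median of 0.27. The median over all genes was -0.10. Against HPC alone no gene of these 2 lists was past 2-fold, and the list medians were -0.06 and 0.07. Against Endo alone 10 of the 20 and 9 of the 28 were higher, where 22% of all genes were, with medians of 0.95 and 0.57. Lower against Endo were 0 and 1, where 29.2% of all genes were. Of 7 partners of the cytokinesis genes, 2 were higher and none lower. Cit, the citron kinase of the midbody, had a mean of 303 CPM in Mk against 69.1 CPM (2.12), and Myh9, the non-muscle myosin heavy chain of the ring, 924 against 453 CPM (1.03).

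At E8.5 fewer genes of these lists passed 2-fold. Ccnd1 (0.761 against 34.8 CPM, -4.34) and Cdk6 (46.2 against 98.5 CPM, -1.08) were lower in Mk as at E10.5. Cdkn1c was lower (0.442 against 27.1 CPM, -4.28) and Cdkn1a, the inhibitor p21, higher (20.5 against 5.29 CPM, 1.77). Of the 13 pocket protein and E2F genes Rb1 (1.71) and E2f2 (1.26) were higher and Foxm1 (-1.16) lower. None of the other replication, other mitosis or cytokinesis partner genes passed 2-fold at E8.5.

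Some members share sequence with other genes of the table. Same-strand copies of at least 90% identity over at least 300 bases were found for 8 members. Pcna-ps2 matched Pcna at 99.2% over 781 bases and had a mean of 192 CPM over all cells, against 210 CPM for Pcna, so the counts of the 2 could be split or shared. Gm12856 matched Ccnb1 at 98.1% over 1294 bases, with a mean of 69.8 against 398 CPM. The copies of Cdc6, Slbp, Cdc20, Plk1, Kif11 and Mcm4 had means from 1.46 to 8.44 CPM. These 2 copies were also the genes outside the lists most like them, as the mean correlation within populations with the list score was 0.55 for Pcna-ps2 with S phase and 0.60 for Gm12856 with mitosis, against medians of 0.07 over all genes. Next in rank were Gm6091, Apex1, Rqcd1 and Siva1 for S phase, and Gm5593, Gm10259, Gm10184 and Kpna2 for mitosis. Besides Fen1 and Ccne2, the members Gins2, Cdc25c and Ccna2 were overlapped by another gene on the opposite strand, and their levels are uncertain to that extent.

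The 2 earliest populations were each read in 2 lanes. Between the 2 lanes of E7.25, the median absolute log2 difference over the 54 members was 0.18 and none differed 2-fold, where 6.52% of all genes did. Between the 2 lanes of E7.75 it was 0.26 and 1 member, the low-level kinase gene Nek2, differed 2-fold (1.59), where 8.63% of all genes did.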

How the data were processed

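Single cells sorted from mouse yolk sacs had been captured and sequenced on the Fluidigm C1 system. Per the methods, the authors used Rsubread for alignment, with the GRCm38 genome of Ensembl as reference, counted reads per gene with featureCounts, filtered cells and genes with scater, and scaled with scran. The deposited tables used here hold these raw counts per gene and the scaled CPM, a signal that the authors divided by size factors, so that it has no fixed sum per cell. Whether strand was used in counting is not given in the sources used here.

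Populations were taken from the labels. Levels were means and medians of CPM over cells. Ratios were log2 of (mean CPM + 1), over genes with a mean of at least 10 CPM on 1 side, and 2-fold or more was called. For shares of cells, counts were thinned to 840000 per cell (random seed 1), and exact Clopper-Pearson 95% intervals were computed. No doublet caller was run. Each population is 1 sample, so that no p-value was computed. Every member could be named. Of other genes, up to 5 a direction past 2-fold in a pathway list and the 5 most correlated with each list score were named. Promoters came from RefSeq (GRCm38.p6), and copies were found with BLAST 2.17.0. Calculations were run in Python 3.11.15 (pandas 2.3.3, numpy 2.4.6, scipy 1.17.1), figures were drawn in matplotlib 3.10.9, and the ratios were tested on simulated data. The members and lists were chosen with earlier results of these data known. Alternatives were other scalings, averages, pseudocounts, filters and sets of cells, and other limits for a rich cell. One erythroid marker is not reported here.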

Additional observations from a re-analysis of the deposited data

How the results depend on the processing

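Some alternatives could not change a value. All 54 members passed the filter on low values, so leaving it out had no effect on them. No E8.5 cell of the populations compared was under the thinning depth. With such values counted as kept, 81 of the values recomputed kept their sign and stayed within the limits set for a change, 27 moved and 4 reversed. All 4 were the median log2 ratio of the S phase members in E10.5 Mk, -0.05 from means, which was 0.41 with medians over cells, 0.57 with means of log2 values, 0.19 without the highest cell of each gene and 0.21 without the highest macrophage. The count of members higher in E10.5 Mk went from 0 (12.5% of all genes) to 12 with medians (25.3%), 18 with means of log2 values (20.0%), 1 with EryP included (15.0%), 1 without the cell of largest scaled total in each population (12.6%), 2 without the highest cell of each gene (14.5%) and 2 without the highest macrophage (16.5%). The count of lower members went from 6 (24.1%) to 1 with means of log2 values (13.3%), 2 without the highest cells (17.6%) and 2 without the highest macrophage (18.3%). In E8.5 Mk the lower count went from 1 (14%) to 5 with medians (18.0%), 4 with means of log2 values (10.4%) and 2 without the highest cells (16.2%), and the higher count from 0 (5.6%) to 2 with medians (8.52%), 1 with means of log2 values (7.63%) and 2 without EryP (8.04%). The settings without the largest cells, the highest cells and the highest macrophage were chosen after seeing the data. The share of E10.5 Mk rich in S phase genes moved from 82.1% to 100% at a minimum of 1 count, 94.0% with 33.3% of the list required and 61.2% with 75% required, in place of 50%. That for mitosis genes moved from 85.1% to 93.2% with all counts, and to 98.5%, 95.5% and 52.2% with the same 3 limits, and in E8.5 Mk, in the same order, from 94.6% to 100%, 100%, 100% and 70.3%. Lane 7 of E7.25 gave 100% for S phase genes against 99.3%. Except where an alternative uses fewer cells or another limit by construction, the cause was not tested. With 3 cells, E10.5 EryP allow no ordering, and no result has a replicate.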
